A study of Mus musculus with 4 samples.

Results

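Heterotrimeric G protein subunits, their regulators and the enzymes that make and break down cyclic nucleotides were followed across 4 samples of mouse hippocampus. Members were all probe sets that the platform's annotation assigns to exactly 1 gene symbol, where that symbol begins as those of the G protein alpha, beta and gamma subunits (Gna, Gnb, Gng), the regulators of G protein signalling (Rgs), the adenylyl cyclases (Adcy), the phosphodiesterases (Pde) or the guanylyl cyclases (Gucy). The rule found 90 probe sets for 62 genes, of 12422 probe sets in all and 8251 genes measured by a probe set with 1 symbol. It also took in the antisense transcript Gnasas1 and the scaffold protein gene Pde4dip, which encode no such protein, and the Pde6 subunits Pde6d, a carrier of prenylated proteins, and Pde6g, an inhibitory subunit.

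In this pathway a receptor at the cell surface activates a G protein, whose alpha subunit binds GTP and parts from the beta-gamma dimer, and both parts then act on enzymes and ion channels. Stimulatory (Gs) and inhibitory (Gi) alpha subunits raise and lower the production of cAMP by adenylyl cyclases, Gq subunits activate phospholipase C beta, RGS proteins speed the hydrolysis of GTP and so end the signal, and phosphodiesterases degrade cAMP and cGMP. In hippocampal neurons cAMP and the kinase it activates take part in long-lasting synaptic plasticity.

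Total RNA of each sample was hybridised to 1 Affymetrix Murine Genome array, and the labels place all 4 samples in a single group of murine hippocampus. They give no genotype, strain, sex, age or treatment and do not say whether the samples came from separate animals, so p-values measure only the spread of these arrays, part of which may be technical. Samples 1 to 4 are named in accession order, to which the labels give no meaning, and no comparison between groups was possible. The sample titles hold numbers that rise in the same order and that the labels do not explain. Signals are in quantile normalized array units. They are compared between samples for 1 probe set and not between probe sets, since each probe set binds its target with its own strength. Sums over marker lists are given as well, and in these the probe sets of strongest signal weigh most. In such tissue samples, fewer cells of a type and less RNA per cell cannot be told apart.

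A probe set was analysed when its mean signal lay above the median of all probe sets, 104 units. This held for 51 of the 90 member probe sets, which measure 38 of the 62 genes. Of the other 39 probe sets, 7 lay below 27.7 units in all 4 samples, the level at which values were floored before taking log2, 18 lay below it in some samples and 14 in none. No analysed member was below the floor in any sample. The member nearest to the limit on its upper side had a mean of 107 units (Rgs10, 161765_f_at) and the nearest on its lower side 100.3 units (Pde9a).

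Sample 4 gave the highest ratios in 1 measure of RNA quality. Control probe sets at both ends of a transcript gave their largest 3' over 5' ratio in sample 4 for all 5 transcripts. The ratios in sample 4 and in the next highest sample were 2.03 and 1.84 for Actb and 1.15 and 0.98 for Gapdh. They were 3.16 and 3.03 for pyruvate carboxylase and 6.42 and 5.01 for 18S. For the transferrin receptor, at 7.20 and 3.36, the 5' value was under the floor in sample 4. A larger ratio is seen with shorter cDNA. Of 14 measured genes that mark hippocampal principal cells, 10 were analysed, and their signals summed over the 14 genes gave 11712, 12598, 9854 and 11084 units in samples 1 to 4. The CA1 marker Wfs1 and the pyramidal and granule cell factor Zbtb20 were among the analysed ones, whereas the granule cell factor Prox1 was below the floor in 2 samples and Pcp4 in 3. Camk2a, a kinase subunit of these cells, gave 357, 629.7, 321 and 29.4 units, with sample 4 lying 14.2-fold below the geometric mean of the remaining samples, which the sum over the list does not show.

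Among the analysed member probe sets the samples differed most in 2 of the 3 that measure the beta subunit gene Gnb1. By the probe set of highest mean, Gng2 (2.72-fold) and Rgs3 (2.59-fold) were wider than Gnb1 (2.55-fold). The range over the 4 samples, the highest over the lowest signal, was under 1.5-fold for 26 of 51 analysed member probe sets (51.0%), against 55.8% of all 6210 analysed probe sets. It was at least 2-fold for 14 member probe sets of 11 genes (27.5%), against 15.2% of all. These 14 were Gnb1 with 3 probe sets, Gna11 with 2, and 1 probe set each of Gnai1, Gnao1, Gng2, Rgs2, Rgs3, Rgs5, Adcy8, Pde1a and Pde4b. Leaving out Gnb1, the count was 11 of 48 (22.9%), and leaving out sample 4 it was 8 (15.7%), against 7.36% of all analysed probe sets in the same 3 samples. Without sample 3 it was 9 (17.3%), against 11.1%. With each gene taken by its probe set of highest mean, 9 of 38 genes reached 2-fold (23.7%), against 13.4% of all 4824 genes, while the median range was 1.38-fold for the members and 1.43-fold for all genes. Over probe sets instead of genes the median range was 1.49-fold for the members and 1.45-fold for all, so the order of the medians depends on the unit counted.

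No member probe set passed the test for a variance above that of probe sets with like signal (F test in limma, adjusted by Benjamini-Hochberg over 6210 probe sets, 0 of 51, smallest adjusted p = 0.405), as for all probe sets (0%). At an unadjusted p under 0.05 there were 6 member probe sets (11.8%), against 5.62% of all. These were the 3 of Gnb1 and 1 each of Gnao1, Gna11 and Rgs3, and without Gnb1 the share was 3 of 48 (6.25%). Single values are therefore given as measured, and no member is called variable, which does not show that the samples were alike.

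**Figure D1:**
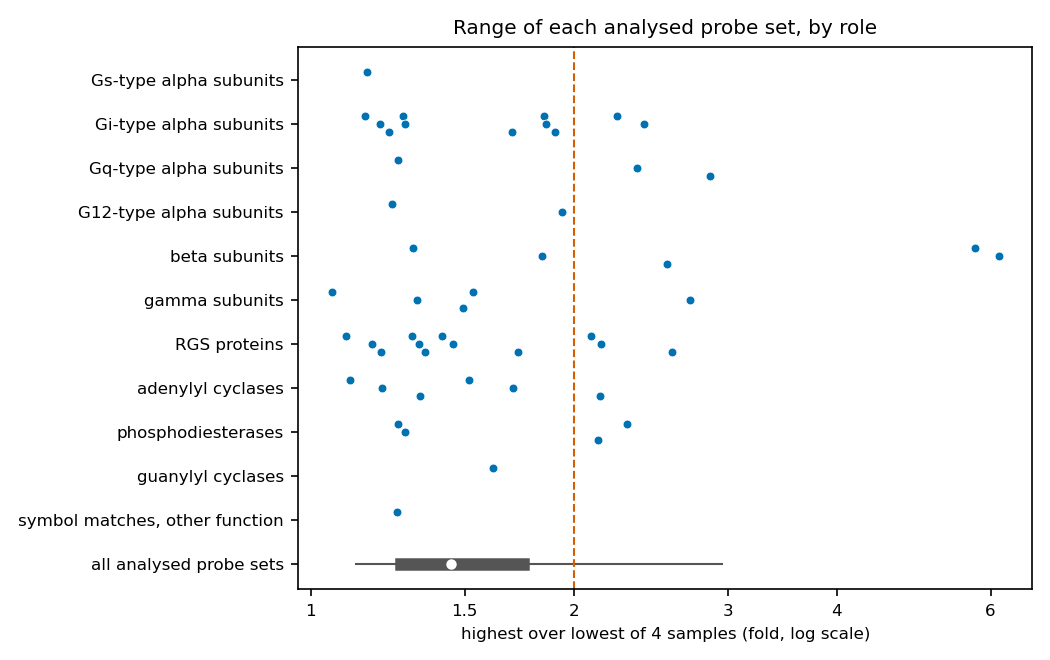
Range over the 4 hippocampus samples (highest over lowest normalized signal, fold, log axis) of the 51 analysed member probe sets, 1 point each, in rows by role; the vertical place of a point within its row has no meaning. In the last row the circle is the median of all 6210 analysed probe sets, 1.45-fold, the thick bar spans the 25th to 75th percentiles and the thin line the 5th to 95th; the dashed line marks 2-fold, and 2 probe sets of Gnb1 lie farthest to the right, at 5.75-fold and 6.13-fold.

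Gnb1 encodes the beta subunit that dimerises with many gamma subunits in brain and that binds ion channels and effectors. All 3 of its probe sets were analysed, and all 3 gave higher signals in samples 1 and 3 than in samples 2 and 4. That order was found in 10 of the 51 analysed member probe sets (19.6%), against 18.5% of all, a share near that of the array. The other 7 measure Gnai1, Gnai3, Adcy2, Adcy8, Gucy1b1, Rgs10 and Rgs14. For probe set 97458_at the signals in order of sample were 5253, 2057, 4219 and 2480.2 units (mean 3502 ± 1496, SD, n = 4). Its range was 2.55-fold. Probe set 94854_g_at gave 2868, 1274, 1816 and 468 units, a 6.13-fold range, with sample 4 far below the others. Probe set 94853_at gave 611, 116, 397 and 106 units, a 5.75-fold range, with samples 2 and 4 close together and low. The adjusted p-values of the variance test (limma) were 0.549, 0.405 and 0.427, and over the other settings tried they ran from 0.184 to 0.911.

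The ranges of all 3 probe sets stayed at 2-fold or more whichever sample was left out. Without sample 4 the ranges of the 3 probe sets were 2.53-fold, 2.26-fold and 5.18-fold, and the lowest range that leaving out any sample gave was 2.07-fold, for 97458_at without sample 1. Among the 704 genes of the whole array with 2 or more analysed probe sets, 7 (0.994%) had the same 2 highest samples and a range of at least 2-fold in every such probe set, and Gnb1 was 1 of them. That pair of conditions was chosen after the values of Gnb1 had been seen. Probe sets that bear the suffix g share probes with the set of the same design, so that 94853_at and 94854_g_at are not independent of each other.

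The other beta subunits followed different orders. Gnb2, another beta subunit found in most tissues, gave 1967, 2555, 2169 and 1388 units and was lowest in sample 4, a 1.84-fold range. Gnb5, which pairs with the R7 family of RGS proteins instead of a gamma subunit, gave 253, 216, 283 and 253 units, and its samples lay within 1.31-fold of each other. Gnb3, known from cone photoreceptors, and Gnb4 had means of 65.4 and 59.1 units and were not analysed. Their signals ran from 41.8 to 86.7 units and from 41.7 to 80.7 units, above the floor in every sample.

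**Figure D2:**
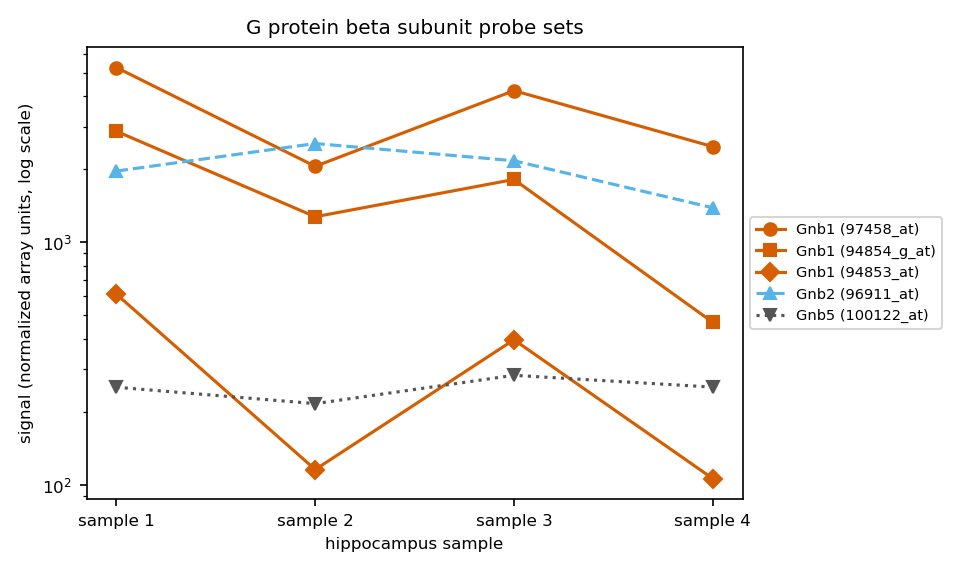
Normalized signal (array units, log axis) of the 5 analysed beta subunit probe sets in the 4 hippocampus samples; points are single samples and lines join the values of 1 probe set. All 3 Gnb1 probe sets are higher in samples 1 and 3 than in samples 2 and 4, while Gnb2 is highest in sample 2 and Gnb5 stays within 1.31-fold.

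Promoter sequences of Gnb1 and of the gamma subunit gene Gng3 are shown because a Gnb1 and a Gng3 probe set had the widest and the narrowest range of the analysed members after quantile normalization. Each is the 250 bases before the gene's start from RefSeq, build GRCm38.p6, 5′ to 3′ on the gene's strand, at chr4:155491111-155491360 on the plus strand for Gnb1 and chr19:8839247-8839496 on the minus strand for Gng3. Capitals mark TGACG, the core of the cAMP response element, and GGGCGG, the GC box, on either strand.
Gnb1: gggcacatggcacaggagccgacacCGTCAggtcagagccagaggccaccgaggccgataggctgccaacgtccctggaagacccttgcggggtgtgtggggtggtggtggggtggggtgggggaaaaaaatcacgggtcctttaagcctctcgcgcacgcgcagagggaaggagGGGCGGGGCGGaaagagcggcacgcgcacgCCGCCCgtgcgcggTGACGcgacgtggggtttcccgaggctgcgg
Gng3: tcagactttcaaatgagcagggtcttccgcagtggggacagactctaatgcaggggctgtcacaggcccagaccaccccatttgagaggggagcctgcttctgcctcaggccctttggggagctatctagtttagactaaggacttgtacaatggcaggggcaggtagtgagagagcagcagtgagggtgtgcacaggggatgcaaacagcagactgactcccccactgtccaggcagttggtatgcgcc
The Gnb1 window held TGACG 2 times and the GC box 3 times, of which 2 overlapped each other, and 69.2% of its bases were G or C. In the Gng3 window neither motif occurred and the share of G and C was 56.8%. Of the 62 member genes, 45 had a promoter entry, with 69 windows in all. TGACG was in 15 of the 69 windows (21.7%) and in 17.8% of all 32851 windows, the GC box in 27 (39.1%) and in 32.7% of all, and the full palindromic element, TGAC followed by its reverse complement, in 0 and in 1.55% of all. These matches are letters in a window and were not set against any measurement of binding.

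Gng3, a gamma subunit of neurons, had the narrowest range of the analysed member genes on the normalized scale. Its signals in order of sample were 3462, 3448, 3492 and 3645 units (mean 3512 ± 90.7, SD, n = 4), and the samples stayed within 1.06-fold. That place depends on the scaling: on deposited values its log2 range of 0.14 exceeded that of Rgs7 (0.12) and Adcy3 (0.13), and with median scaling it was 0.27, above Adcy3 (0.15), Gna12 (0.19), Rgs7 (0.19) and Rgs8 (0.19). Gng10 and Gng12, gamma subunits that are also found outside neurons, gave 608, 515, 571 and 788 units and 609, 563, 505 and 667 units, each highest in sample 4. A second Gng12 probe set gave 109, 133, 89.2 and 126 units and shared with the first the lowest sample, sample 3. Gng2, a gamma subunit widely expressed in brain, was the widest of this family, at 212, 159, 78.0 and 130.2 units and 2.72-fold. Sample 1 was highest and sample 3 lowest, and without sample 3 its range was 1.63-fold.

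The gamma subunit genes Gng4, Gng11 and Gngt2 were not analysed. Gng4 gave 56.2, 38.7, 89.6 and 30.2 units. Gng11, a gamma subunit known from endothelial cells among others, gave 50.9, 48.7, 30.4 and 27.8 units, just above the floor in samples 3 and 4, and its second probe set was below the floor throughout. The 8 measured endothelial markers summed to 1028, 882, 804 and 880.2 units in samples 1 to 4, but single markers differed. Cldn5 and Flt1 were highest in sample 1, Cdh5 and Tek in sample 2, and Pecam1, Vwf, Kdr and Tie1 in sample 4. The part of endothelial cells in the order of Gng11 was not tested. Gngt2, the cone gamma subunit, was below the floor in all 4 samples.

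Among the alpha subunits, 10 of 14 measured genes were analysed, and in sample 4 the signals of 8 of the 10 exceeded the mean over the remaining samples, as did those of 52.1% of all analysed genes. Their median log2 deviation there was 0.15, against 0.02 for all analysed genes, in the sample that also had the highest 3' to 5' ratios. The part of RNA quality in this was not tested. In samples 1, 2 and 3 the medians were -0.07, -0.10 and 0.00.

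Gnas, the stimulatory alpha subunit that activates adenylyl cyclase, gave 12099, 12099, 14039 and 14039 units by its analysed probe set. Quantile normalization gave it tied values, and the deposited signals were 12775, 11618, 14773 and 14390.2 units. Both scales put samples 3 and 4 above samples 1 and 2, with a normalized range of 1.16-fold. The Gnas locus also makes imprinted transcripts from other promoters, and the files do not say which of them each probe set detects. Its other probe sets had means of 55.4 and 29.4 units, and the antisense transcript Gnasas1 was above the floor in sample 4 only, at 31.4 units.

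Of the inhibitory class, Gnao1 and Gnai2 were measured most often. Gnao1, the most prominent alpha subunit of brain, which mediates inhibition of calcium channels by neurotransmitter receptors, gave 3082, 3581, 4305 and 5705 units by the probe set of highest mean, a 1.85-fold range with sample 4 highest. Its probe set 161902_f_at gave 284, 264, 223 and 501 units and was again highest in sample 4. By 104414_at the signals were 382, 311, 313 and 374 units and by 100388_at 169.6, 174, 136 and 159 units, within 1.23-fold and 1.28-fold, and sample 4 was highest in neither. A further Gnao1 probe set was below the floor in all samples.

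Gnai2 is an inhibitory alpha subunit also abundant in glia and blood cells. Its probe set of highest mean, 99596_f_at, gave 4268, 3906, 4560.0 and 4691 units (4356 ± 349, SD, n = 4). Its probe set 99598_g_at had the same highest and lowest samples, with 1629, 1190.3, 1515 and 2211 units. That set bears the suffix g and may share probes with the others of Gnai2. By 99597_at the signals were 577, 625, 739.5 and 715 units, highest in sample 3. Gnai1, an inhibitory subunit of neurons, differed by probe set. Its probe set 104412_at gave 1163, 1205, 1185 and 1343 units, within 1.16-fold, and 97195_at gave 265, 164, 239.8 and 109.9 units, a 2.41-fold range. Sample 4 was highest by the first and lowest by the second.

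Gnai3 gave 619, 435, 459 and 325 units, highest in sample 1 and lowest in sample 4. Gnaz, an inhibitory subunit that resists pertussis toxin, gave 219, 208, 353 and 258 units and was highest in sample 3. The transducins Gnat1 and Gnat2, the alpha subunits of rod and cone vision, were each above the floor in 1 sample only, Gnat1 in sample 4 at 46.5 units and Gnat2 in sample 1 at 56.8 units. Of 9 measured photoreceptor markers, Rcvrn, Prph2 and Rom1 were below the floor throughout, and 1, the transcription factor Crx, was analysed, at 36.2, 191, 92.8 and 167 units.

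The Gq class couples receptors to phospholipase C. Gna11 was at least 2-fold wide by both probe sets, but they ordered the samples differently. Probe set 102196_at gave 390.3, 363, 276 and 651 units, highest in sample 4 and lowest in sample 3, and 103411_at gave 187, 135, 385 and 312 units, highest in sample 3 and lowest in sample 2. Without sample 4 the first of them spanned 1.41-fold and the second 2.82-fold. Gnaq gave 117, 107, 92.7 and 115 units, within 1.26-fold. Gna15 stayed between 30.8 and 57.8 units and Gna14 below the floor, both known mainly from other tissues.

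The G12 class was measured by Gna12 and Gna13. Gna13 gave 188, 291, 237 and 366 units by its analysed probe set and 50.1, 118, 89.4 and 127 units by the other, and both put sample 4 highest and sample 1 lowest. Gna12 gave 319, 356, 309.9 and 287 units, within 1.24-fold. Its second probe set, not analysed, gave 158, 90.7, 16.9 and 73.5 units, the value in sample 3 below the floor.

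Agreement between probe sets of a gene was counted over the family. Of 9 member genes with 2 or more analysed probe sets, 3 had the same highest sample in all of them (Gnb1, Adcy9 and Rgs19), against 27.6% of the 704 genes of the whole array. The same lowest sample was found for 3 (Adcy9, Gng12 and Rgs19), against 26.1%, and both for 2 (Adcy9 and Rgs19), against 11.4%. Of the 2 analysed Rgs19 probe sets 1 bears the suffix g, so that they may share probes and not be independent. A range of at least 2-fold in every probe set was found for Gnb1 and Gna11, against 4.12%. The 9 genes are few, and the counts describe them only.

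**Figure D3:**
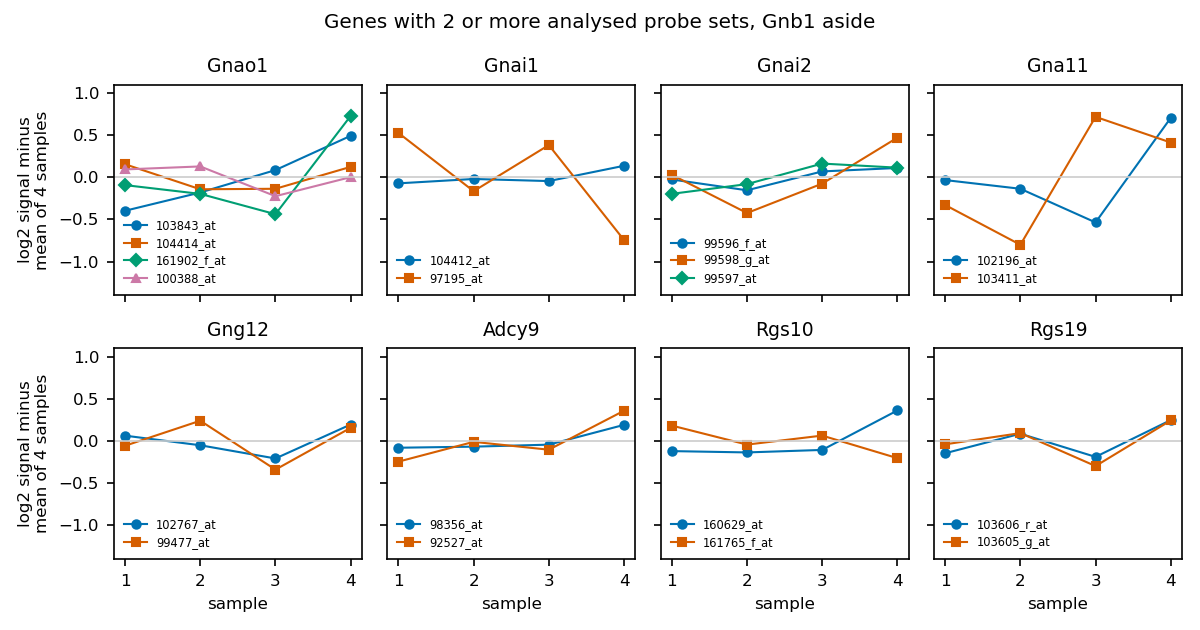
Log2 normalized signal of each analysed probe set minus its mean over the 4 hippocampus samples (y axis, log2 units; x axis, sample number), for the 8 member genes other than Gnb1 with 2 or more analysed probe sets; each line is 1 probe set. The lines run together for Adcy9 and Rgs19 and part in sample 4 for Gnai1 and Rgs10, where 1 probe set is highest and the other lowest.

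Adenylyl cyclases, which make cAMP from ATP, were measured for 7 genes, of which 5 were analysed; Adcy1 and Adcy5 had no member probe set. Adcy8, a calcium and calmodulin-stimulated cyclase of hippocampal neurons, gave 169, 149.7, 159.7 and 79.1 units, with sample 4 low and the other samples within 1.13-fold of each other. Its range over 4 samples was 2.14-fold. Adcy9 was highest in sample 4 and lowest in sample 1 by both probe sets, with 842, 849.8, 864 and 1016 units and 554, 652, 611 and 841 units.

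Adcy2, a cyclase stimulated by beta-gamma dimers together with Gs, gave 1164, 683, 1121 and 974 units, lowest in sample 2. Without sample 2 it spanned 1.20-fold. Adcy3, a cyclase of primary cilia and olfactory neurons, was the steadiest cyclase, at 288, 273, 269 and 259.9 units (273 ± 11.7, SD, n = 4). Adcy6, which Gi and calcium inhibit, gave 351, 421, 332 and 316 units. Of those not analysed, Adcy4 gave 86.4, 123, 77.0 and 52.6 units and Adcy7 was above the floor in sample 1 only, at 63.5 units.

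Guanylyl cyclases, which make cGMP, were measured by 4 probe sets for 3 genes. Gucy1b1, the beta subunit of the soluble enzyme that nitric oxide activates, was analysed and gave 460.4, 287, 375 and 285 units, a 1.62-fold range. Its order of samples was among those counted with Gnb1 above. Nos1, the neuronal nitric oxide synthase, gave 188, 92.5, 70.5 and 153 units, highest in sample 1 and lowest in sample 3. The receptor cyclases Gucy2c, of the intestine, and Gucy2e, of the retina, were below the floor in 1 or more samples by every probe set, with a highest value of 102 units for Gucy2c in sample 3.

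Phosphodiesterases were measured for 11 genes, and 4 were analysed. Pde1a, a calmodulin-dependent enzyme of pyramidal neurons, gave 136, 146, 312 and 256 units, a 2.30-fold range with samples 3 and 4 above the others. Its second probe set, not analysed, gave 66.7, 53.8, 86.2 and 87.2 units, with samples 3 and 4 again above the others. Pde1b, a calmodulin-dependent enzyme also prominent in striatum, was steady at 929.5, 724, 863 and 886 units (850.5 ± 88.7, SD, n = 4).

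Pde4b, a cAMP-specific enzyme that limits neuronal cAMP signals, gave 155, 111, 73.0 and 147 units, lowest in sample 3, a 2.13-fold range that fell to 1.39-fold without that sample. The carrier protein Pde6d gave 325, 389, 317 and 399 units. The scaffold Pde4dip, which anchors Pde4d and is no phosphodiesterase itself, gave 727, 617, 757 and 774 units, within 1.25-fold, by 1 probe set and was below the floor by the other.

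The 7 phosphodiesterase genes not analysed were Pde1c, Pde6a, Pde6b, Pde6g, Pde7a, Pde8a and Pde9a. Pde9a, a cGMP-specific enzyme of brain, gave 92.0, 81.8, 117 and 111 units and lay closest to the limit. Pde7a and Pde8a, cAMP-specific enzymes, stayed between 57.5 and 76.2 units and between 45.1 and 78.1 units. The rod subunit genes Pde6a and Pde6b were below the floor in 1 or more samples by every probe set, and Pde1c was below it throughout. Pde2a and Pde10a had no member probe set.

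RGS proteins, which shorten G protein signals, were measured for 13 genes, of which 10 were analysed. Rgs14, which marks the CA2 field of the hippocampus, was steady at 2277, 2016, 2226 and 1893 units (2103 ± 180.2, SD, n = 4), within 1.20-fold. Rgs7, a partner of Gnb5 in neurons, gave 483, 465, 439.9 and 475 units, highest in sample 1, and Rgs8, a regulator best known from cerebellum, gave 443, 460.4, 392 and 411 units. The CA2 marker and both regulators thus differed little between samples.

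The 3 regulators that spanned 2-fold or more on the normalized scale were Rgs3, Rgs2 and Rgs5. Rgs3, which acts on Gi and Gq, gave 412, 514, 313 and 198 units, highest in sample 2 and lowest in sample 4, a 2.59-fold range and 1.62-fold without sample 4. Rgs2, a regulator selective for Gq whose gene neuronal activity induces, gave 118, 133, 176 and 81.6 units, highest in sample 3 and lowest in sample 4. Its range was 2.15-fold, and 1.48-fold without sample 4.

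Rgs5, a marker of pericytes in brain vessels, gave 166, 79.0, 99.9 and 129 units by its analysed probe set and 133, 62.0, 11.4 and 40.7 units by the other. Sample 1 was highest by both, and the lowest was sample 2 by the first and sample 3 by the second, there below the floor. Without sample 1 the first spanned 1.64-fold and no longer passed the signal filter. On deposited values its log2 range was 0.97, just under 2-fold. The 10 measured markers of pericytes and vascular smooth muscle summed to 837, 855, 695 and 736 units in samples 1 to 4, 2 of them were analysed, and Kcnj8 was below the floor in 3 samples. Their part in the order of Rgs5 was not tested.

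Rgs4, a regulator of Gi and Gq in cortical and hippocampal neurons, was not analysed, with 155, 77.2, 65.3 and 25.5 units and a value below the floor in sample 4. Its range was at least 5.61-fold, and it was highest in sample 1. Rgs9, a regulator of striatal neurons, was below the floor in samples 2 and 4 and gave 39.7 and 29.3 units in samples 1 and 3. The 5 measured markers of striatal projection neurons summed to 1288, 972, 1132 and 1122 units, but single markers differed. Penk, most of that sum, was highest in sample 1 and lowest in sample 2. Tac1 was highest in sample 2, Foxp1 in sample 3 and Drd2 in sample 4, and Isl1 was below the floor throughout. The part of striatal cells in the signals of Rgs9 was not tested. Rgs6 ran from 23.4 units, below the floor, in sample 1 to 49.3 units in sample 3.

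Rgs10, a regulator abundant in microglia, gave 197, 195, 199 and 275 units, with sample 4 apart, and 120.3, 103, 111 and 92.1 units by a second analysed probe set, with sample 4 lowest. The 10 measured microglia markers summed to 3862, 4074, 3736 and 3513 units, lowest in sample 4, but single markers differed. Of the analysed ones, Ctss, C1qa and Cx3cr1 were lowest in sample 4, and Csf1r, C1qb and Tyrobp in sample 1. Laptm5 was lowest in sample 2 and C1qc in sample 3, while Tyrobp was highest in sample 4. The part of microglia in the order of Rgs10 was not tested. Rgs16 gave 236, 236, 246 and 314 units, and Rgs19 gave 332, 389.6, 322 and 436 units and 137, 151, 115 and 167 units by its analysed probe sets, with sample 4 highest for each. Rgs11, a partner of Gnb5, gave 351, 339, 292 and 203 units, lowest in sample 4.

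**Figure D4:**
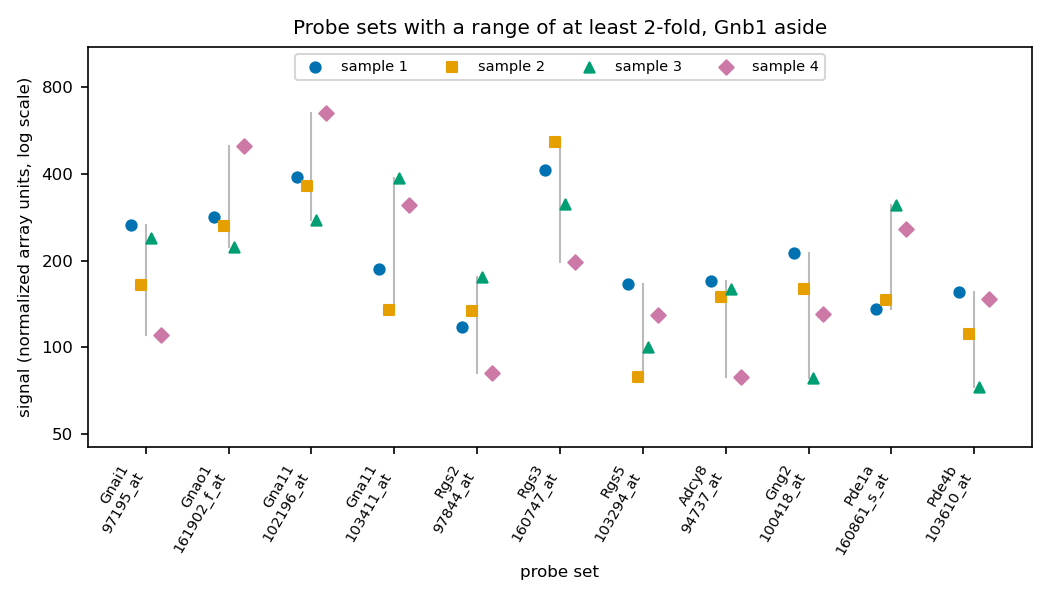
Normalized signal (array units, log axis) of the 11 analysed member probe sets other than those of Gnb1 with a range of at least 2-fold; each point is 1 hippocampus sample and the grey line spans lowest to highest. Sample 4 is the lowest in Gnai1, Rgs2, Rgs3 and Adcy8 and the highest in Gnao1 and 1 probe set of Gna11.

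Counted by sample, the analysed members were highest in sample 1 for 19 probe sets (37.3%), against 24.7% of all analysed probe sets, and in sample 4 for 18 (35.3%), against 31.1%. In samples 2 and 3 they were highest for 7 each (13.7%), against 21.6% and 22.5%. Gnas, tied in samples 3 and 4, is counted as highest in sample 3 and, tied in samples 1 and 2, as lowest in sample 1. The lowest value fell in samples 1 to 4 for 9, 14, 13 and 15 probe sets (17.6%, 27.5%, 25.5% and 29.4%), against 23.3%, 22.7%, 23.3% and 30.7% of all. Of the 14 probe sets with a range of at least 2-fold, 8 were highest in sample 1, against 25.6% of the 944 such probe sets of the array, and 6 were lowest in sample 4, against 36.8%. The 3 probe sets of Gnb1 are among these 8. So is that of Rgs5, which was not analysed when sample 1 was left out, so its place here rests on that sample. Erythroid markers, summed over 5 measured genes, gave 14261, 11215, 4718 and 8807 units, and choroid plexus markers, over 5 genes, 3008, 1677, 1177 and 2299.7 units. Both sums were highest in sample 1 and lowest in sample 3, but single markers differed. Ttr, most of the choroid plexus sum, and Folr1 were highest in sample 1, Kl and Aqp1 in sample 4 and Slc4a5 in sample 2. Hba-a1 and Hbb-b2, most of the erythroid sum, were highest in sample 1. Alas2 and Slc4a1 were highest in sample 2 and Klf1 in sample 3. The part of either list in the members' order was not tested.

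Between pairs of samples, the members differed most for samples 3 and 4. The median absolute log2 difference over the 51 probe sets was 0.40 there, against 0.30 over all analysed probe sets, and 8 probe sets (15.7%) differed at least 2-fold, against 6.88%. It was lowest for samples 1 and 3, at 0.21 for the members and 0.21 for all, with 4 probe sets (7.84%) at 2-fold or more, against 3.3%. For samples 2 and 4 the count was 3 (5.88%), against 5.68%. Samples 1 and 2 differed at least 2-fold in 4 probe sets (7.84%), against 3.86%, samples 1 and 4 in 6 (11.8%), against 7.44%, and samples 2 and 3 in 5 (9.80%), against 4.41%.

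Partners and effectors of these proteins were counted in the same way. Of 41 measured genes from 4 lists of receptor kinases and other G protein partners, cAMP effectors, nitric oxide and cGMP signalling, and phospholipase C beta, 18 were analysed and 3 had a range of at least 2-fold (Arrb1, Pcp2 and Nos1), against 13.4% of all genes. None passed the variance test (limma, adjusted), and 1, Pcp2, had an unadjusted p under 0.05. Of the 10 analysed cAMP effectors, 0 reached 2-fold. The widest was Prkacb, a catalytic subunit of the cAMP-dependent kinase, with 1211, 1627, 1893 and 2182 units, lowest in sample 1 and highest in sample 4.

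Arrestin beta 1 (Arrb1), which uncouples receptors from G proteins, gave 588, 603, 678 and 327 units, lowest in sample 4. Pcp2, a modulator of Gi and Go known from Purkinje cells, gave 140.1, 153, 401 and 135 units, highest in sample 3. Plcb1, the phospholipase C that Gq activates in hippocampus, gave 1302, 1202, 1148 and 1499 units, highest in sample 4.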

How the data were processed

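The platform that the probe annotation names is known as the Affymetrix MG_U74Av2 array. The authors deposited 1 intensity per probe set and array, unlogged, and the software that made them is not given in the sources used here. The deposited means of the arrays without the lowest and highest 2% of probe sets averaged 250.1 units over the 4 arrays. That average does not show whether each array had been scaled before deposit. After removal of 66 controls, quantile normalization was run in limma 3.58.1 (R 4.3.3), and values were floored at their 25th percentile (27.7 units) and taken to log2; the text prints normalized signals before the floor, and a range that involves the floor is a lower bound. All 90 member probe sets matched the RefSeq gene table of GRCm38.p6 by Entrez identifier, and no symbol differed. Variances were tested by a one-sided F test against the robust intensity trend (3 residual and 5.06 prior degrees of freedom), with Benjamini-Hochberg adjustment over 6210 probe sets at 0.05. On simulated data the test recovered most of the largest changes planted and none of the smallest, which were 4-fold. The changes were planted in many probe sets at once, which eases the adjusted threshold. In the measured data Camk2a, with a range of 21.4-fold, did not pass (adjusted p = 0.356, F test in limma). A count of 0 therefore leaves room for differences of 4-fold and for larger ones. Genes were represented by their probe set of highest mean. The median log2 deviation compares each sample with the mean over the remaining ones.

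Named genes were, by role, those with the widest and narrowest range, all with a range of at least 2-fold, those with several analysed probe sets, and a list of well-known members; the remaining members were added after their values were seen, to account for the whole family. The members and lists were chosen with earlier results of these data known. Detection calls and probe sequences were not used here, so whether probe sets with the suffix f or s also bind related transcripts was not checked. Precision is limited by having 4 arrays. Alternatives covered normalization, signal filter, floor, probe set choice and leaving out each sample.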

Additional observations from a re-analysis of the deposited data

Results flagged for a closer look

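In 5 of 65 member probe sets with all 4 signals above the floor (7.69%), 1 sample lay apart, with a gap to its nearest neighbour over the group's log2 range above Dixon's 95% critical value for 4 samples. Chance alone gives about 1 in 20 such groups, and over all 7965 such probe sets the share was 5.75%. Sample 4 was the one apart for Rgs10 (0.940, high), Adcy9 (0.865, high), Rgs16 (0.858, high) and Adcy8 (0.838, low), and sample 1 for Pde6g (0.892, high), whose signals were 106, 53.9, 57.4 and 57.9 units. The second analysed probe set of Rgs10 had sample 4 lowest, and that of Adcy9 had it highest. The 3' over 5' ratio peaked in sample 4 as well for all 5 controls, 1 of them with a 5' signal below the floor there, and its part in these values was not tested.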

How the results depend on the processing

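The variance test called 0 member probe sets under every setting tried, with 5 to 8 at an unadjusted p under 0.05. Over all analysed probe sets such counts ran from 271 of 4969 with the filter at the 60th percentile to 423 of 12422 with no filter. The settings were values as deposited, median scaling, no signal filter, a filter at the 60th percentile and a floor at the 10th percentile. An ordinary trend fit and each sample left out were the others. The 14 member probe sets with a range of at least 2-fold became 27 with no signal filter (30.0%, against 22.6% of all), where the median range rose from 0.47 to 0.76 log2 units as low signals entered, and 9 with the filter at the 60th percentile (22.0%, against 10.9%), which tests fewer probe sets. Leaving out a sample gave 8 to 13, lowest without sample 4 and 9 without sample 3, where 3 values in place of 4 make narrower ranges by construction. Of the 14, 4 stayed at 2-fold or more whichever sample was left out, the 3 of Gnb1 and 1 of Gna11 (103411_at). This was counted for the members only, so whether that share is unusual for the array cannot be said. The median deviation of member genes moved with median scaling from -0.07 to -0.19 in sample 2 and from 0.08 to 0.16 in sample 4, where that scaling put the median of all genes at -0.09 and 0.11. In sample 4 it ran from 0.043 to 0.15 when another sample was left out. Of 373 ranges of the 38 single genes under the alternatives, 330 moved by less than 1 SD of the gene, and 14 of the other 43 arose without sample 4. No paired analysis was possible because all samples form 1 group. Signals near the floor cannot be told from background without detection calls.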
